A study of Mus musculus with 6 samples.

Results

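Colonization by any bacteria was compared with the germ-free state by setting 4 colonized H3K9ac libraries against 2 germ-free ones, which is all 6 libraries of the study. The members were chosen by their labels: 2 libraries from mice monoassociated with E. coli and 2 from conventionally housed mice formed the colonized side. All were chromatin immunoprecipitations of acetylated lysine 9 of histone H3 from intestinal epithelium, taken from its distal part, in mice of the common inbred strain C57BL/6, and the labels give neither a mutation nor an age. The germ-free mice carried no microbes, the monoassociated mice carried E. coli as their single bacterium, and the conventional mice carried an ordinary microbiota. The E. coli strain, the length of the association and the number of mice behind a library are not in the labels, so the 2 libraries of a group may differ only technically, and their spread measures no more than that between these libraries. The colonized side joins a single bacterium with a whole microbiota, and a feature counted in all 4 of its libraries is shared by these unlike states.

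H3K9ac is placed by acetyltransferases such as Gcn5 and Pcaf, removed by histone deacetylases, and lies on the nucleosomes that flank the start sites of active genes. In the gut, microbes reach the epithelium through pattern recognition receptors and through metabolites, among them short-chain fatty acids that inhibit deacetylases. Genes known for their response to microbes in enterocytes include those for transport of IgA, antigen presentation and antimicrobial proteins.

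The data were peak lists, 1 per library, in which each interval has a fold enrichment and a -log10 q given by the authors' peak caller. Germ-free lists had 4430 and 17094 intervals, E. coli lists 1988 and 870, and conventional lists 3117 and 15352 (replicates 1 and 2 in each case). To keep list length from deciding what was present, the 870 intervals with the highest -log10 q of each list were used, which was 5.09 to 100% of a list. A gene was called in a library where 1 of those intervals, tied to the gene by the authors, lay within 1 kb of a start site. Where the authors tied an interval to more than 1 gene, a start site of any of them was enough. Folds of different libraries are not on a common scale, so each is read against the fold of the lowest-ranked interval used from its own list: 6.93 and 9.50 in the germ-free libraries, 5.92 and 4.28 in the E. coli libraries and 6.37 and 10.1 in the conventional ones. Many intervals shared the -log10 q of the lowest rank (95 to 580 in a list), and which of them were used was set by fold and then chromosome position. For each member it is therefore stated whether its pattern held for any order of these ties. Weaker marks are not in such lists, and a promoter that is not called may still be acetylated.

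Some libraries stood apart in ways that did not follow colonization. Intervals were longer in germ-free replicate 2 and conventional replicate 2, with medians of 1055.5 and 967.5 bp, than in the other 4 libraries, with medians of 222 to 350 bp. E. coli replicate 2 had the shortest list, so all of its intervals were used. Of the epithelial genes checked, Vil1, Cdx2, Epcam and Cldn7 were called in all 6 libraries, Cdh1 in 4 and Krt8 in 3. No gene of the lists for goblet, Paneth, enteroendocrine and tuft, lymphocyte and myeloid, or stromal and other non-epithelial cells was called in any library. In the complete lists, 11 of 22 goblet genes had a promoter interval in at least 1 library. So did 1 of 12 Paneth, 1 of 20 enteroendocrine and tuft, 3 of 36 lymphocyte and myeloid and 0 of 36 stromal and other genes.

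Of 1770 genes called in at least 1 library, 9 were called in all 4 colonized and in neither germ-free library, which is 0.508% of them. The reverse pattern, both germ-free and no colonized library, was shown by 18 genes, or 1.02%. A further 28 genes, or 1.58%, were called in exactly 3 colonized libraries and in neither germ-free one. In all 6 libraries 81 genes were called. The pattern of all 4 colonized libraries needs 4 calls and the reverse one 2, so their shares are not like measures. Of genes with 2 calls, 18 had both on the germ-free side, 149 both on the colonized side and 189 had 1 on each. Of genes with 4 calls, 9 had all on the colonized side, 57 had 3 there and 50 had 2 there. The smallest p that 6 libraries split into 4 and 2 can give for 1 gene is 0.0667, so no single gene could pass 0.05 and these counts carry no test.

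**Figure D1:**
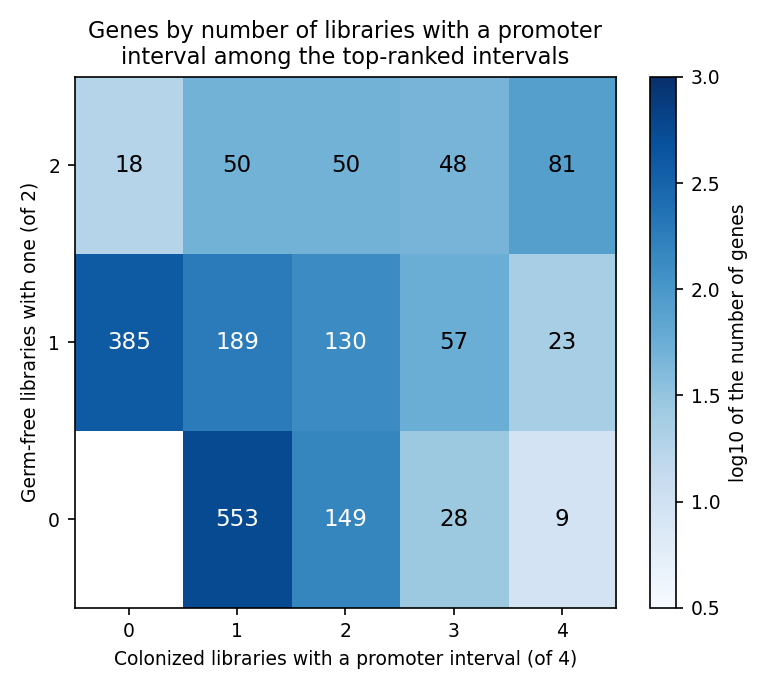
Number of genes by how many of the 4 colonized libraries (x axis) and of the 2 germ-free libraries (y axis) held a promoter interval among the 870 top-ranked intervals; shading is the log10 of the number. The corner for 4 colonized and no germ-free library holds 9 genes, the corner for 2 germ-free and no colonized library 18, and the corner for all 6 libraries 81.

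The promoters of 3 genes with a pattern on the colonized side and of 2 on the germ-free side are shown as examples of the members; they were picked after their values were seen, for their known roles in the epithelium. Sequences are from RefSeq on GRCm38.p6, the assembly behind mm10, and run 5′ to 3′ on the strand of the gene from 250 bases before the start site to 50 after it. The windows are chr1:130826434-130826733 on the plus strand for Pigr, chr1:74951623-74951922 on the minus strand for Ihh, chr2:122147437-122147736 on the plus strand for B2m, chr8:84978699-84978998 on the minus strand for Junb and chr1:171437311-171437610 on the plus strand for F11r. Capitals mark matches, on either strand, to any of 11 motifs: the GC box GGGCGG, the CCAAT box CCAAT, the Ets core CCGGAAG, the cAMP response element TGACGTCA, the AP-1 site TGANTCA, the E-box CACGTG, the Hnf4 half-site CAAAGTCCA, the interferon-stimulated element (TTTC, any pair of bases, TTTC), the nuclear receptor half-site AGGTCA, the Cdx site TTTATGG and the TATA box TATAAA.
Pigr: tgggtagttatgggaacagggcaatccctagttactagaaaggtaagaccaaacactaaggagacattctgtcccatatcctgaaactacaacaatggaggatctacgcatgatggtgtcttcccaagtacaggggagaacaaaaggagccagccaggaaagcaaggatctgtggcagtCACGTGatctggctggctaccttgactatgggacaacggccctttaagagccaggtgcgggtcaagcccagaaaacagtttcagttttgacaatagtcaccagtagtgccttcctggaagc
Ihh: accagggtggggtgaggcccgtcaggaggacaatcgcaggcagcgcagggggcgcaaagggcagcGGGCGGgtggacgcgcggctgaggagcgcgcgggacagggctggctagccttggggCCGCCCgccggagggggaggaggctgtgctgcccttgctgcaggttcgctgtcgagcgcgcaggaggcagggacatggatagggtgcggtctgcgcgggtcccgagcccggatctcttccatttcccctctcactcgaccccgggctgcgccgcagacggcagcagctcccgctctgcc
B2m: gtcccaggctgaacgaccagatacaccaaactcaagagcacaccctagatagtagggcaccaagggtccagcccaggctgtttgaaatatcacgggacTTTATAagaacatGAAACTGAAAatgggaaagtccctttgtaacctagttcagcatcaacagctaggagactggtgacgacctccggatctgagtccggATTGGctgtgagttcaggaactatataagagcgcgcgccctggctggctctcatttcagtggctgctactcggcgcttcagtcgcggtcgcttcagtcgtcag
Junb: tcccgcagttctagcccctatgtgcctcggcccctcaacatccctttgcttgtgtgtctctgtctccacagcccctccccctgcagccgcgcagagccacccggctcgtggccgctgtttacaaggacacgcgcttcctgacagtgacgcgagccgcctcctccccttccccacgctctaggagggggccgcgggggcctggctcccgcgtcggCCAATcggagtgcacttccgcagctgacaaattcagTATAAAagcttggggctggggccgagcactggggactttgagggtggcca
F11r: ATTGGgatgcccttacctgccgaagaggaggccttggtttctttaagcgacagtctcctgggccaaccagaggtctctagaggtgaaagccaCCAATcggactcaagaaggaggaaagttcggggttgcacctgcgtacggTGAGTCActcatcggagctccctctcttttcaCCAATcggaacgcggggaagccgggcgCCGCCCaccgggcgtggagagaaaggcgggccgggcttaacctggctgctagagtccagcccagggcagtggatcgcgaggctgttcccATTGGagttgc

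The Pigr window held 1 match, an E-box that starts 71 bases before the start site. The Ihh window held GC boxes at 185 and 129 bases before its start site. In the B2m window an interferon-stimulated element lay at -139, a CCAAT box at -53 and a TATA box at -152. The Junb window held a CCAAT box at -36 and a TATA match at the annotated start site itself. The F11r window held 4 CCAAT boxes, a GC box at -50 and an AP-1 site at -109. Across the members, the set of RefSeq promoter sequences used here held 48 of 55 genes. It lacked Letm2, Eps8, Krt19, Ier2, Maf, Smad7 and Kdm2a. Windows were counted per gene, so genes with a shared promoter, such as Trip12 and Fbxo36, count separately. A GC box was in 7 of 9 windows of the genes called in all 4 colonized libraries. It was in 12 of 14 of the germ-free pattern and 18 of 25 of the genes called in exactly 3 colonized libraries. The shares were 64.2% over the 1872 promoters of all genes called in any library and 35.6% over all 32817 promoters of the set. An AP-1 site was in none of the 9, in 1 of the 14 and in 1 of the 25 promoters of genes called in exactly 3 colonized libraries, against 5.45% of promoters of called genes. Interferon-stimulated elements were in 1, 0 and 2 promoters of these groups, against 2.30% of promoters of called genes. E-boxes were in 2, 1 and 3 promoters, against 9.56%. Ets cores were in 2, 6 and 4 promoters, against 17.4%, and CCAAT boxes in 2, 4 and 4, against 32.2%. The median GC content was 70.3, 64.0 and 64.3% in the 3 groups and 63.0% over the promoters of called genes. A match describes the letters in this window and is not a bound site. The windows were set by the start site and not by the acetylated intervals. The strongest called interval of a gene overlapped its window in 1 library for Pigr, 1 for Ihh, 2 for B2m and 0 for Junb and F11r.

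The 9 genes called in all 4 colonized and no germ-free library were Pigr, Ihh, Gna11, Msl1, Trip12, Fbxo36, Ube2q1, Tfg and Pmp22, and they stood for 8 promoters because Trip12 and Fbxo36 share theirs. All 9 are protein-coding, and 1 of them, Pigr, was in the list of antimicrobial and mucosal defence genes. For 6 of the 9 (Ihh, Gna11, Msl1, Trip12, Fbxo36 and Pmp22) the pattern held for any order of the ties. None of the 9 was free of the mark in the germ-free mice as far as the complete lists show: 7 had a promoter interval elsewhere in the complete list of germ-free replicate 1 and 8 in that of germ-free replicate 2. The difference was thus one of rank within a list, and over the complete lists none of 8655 genes (0%) was called in all 4 colonized and neither germ-free library. The same lists, of unequal length, gave 7 genes (0.0809%) called in exactly 3 colonized and no germ-free library and 61 (0.705%) called in both germ-free libraries alone.

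Pigr encodes the polymeric immunoglobulin receptor, which carries IgA across the epithelium into the lumen. Its strongest promoter interval ranked 451 and 410 in the E. coli libraries and 485 and 713 in the conventional ones. The folds were 6.51, 5.70, 7.08 and 10.1 in the same order, and the last equalled the fold of the lowest-ranked interval used from conventional replicate 2. Germ-free replicate 1 listed a promoter interval with a fold of 4.62, below the 6.93 needed, and germ-free replicate 2 listed none within 1 kb of the start site at position 130826684 of chromosome 1. That all 4 colonized libraries held Pigr among the ranks used, and neither germ-free one did, is the rule by which it was picked. The pattern rested on a tie in 1 library. The strongest colonized intervals did not share a base in all 4 libraries, and all lay mainly downstream of the start site. Germ-free replicate 1 also listed an interval from 1142 to 1673 bp downstream with a fold of 6.35, and germ-free replicate 2 one from 2452 to 2631 bp downstream with a fold of 4.43. No other defence gene had the pattern: Ceacam1 and Tifa were each called in 1 colonized and no germ-free library, and Plac8, in both germ-free and both E. coli libraries.

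Ihh encodes Indian hedgehog, the ligand that enterocytes send to the mesenchyme below them. Its interval ranked 211 and 587 in the E. coli libraries and 246 and 169 in the conventional ones, with folds of 8.29, 4.99, 8.49 and 14.5. In the germ-free lists the strongest promoter intervals had folds of 5.19 and 6.33, against 6.93 and 9.50 needed. Its 4 colonized intervals shared at least 1 base, lay downstream of the start site at position 74951651 of chromosome 1 or, in conventional replicate 2, across it, and kept the pattern for any order of ties. Gna11, the alpha subunit of a G protein that couples receptors to phospholipase C, ranked 302, 337, 637 and 241 in the colonized libraries, and its germ-free folds of 6.35 and 8.24 fell short of the ranks used. Both of these signalling genes were therefore below the used ranks, and not absent, in both germ-free lists.

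Msl1 encodes a scaffold subunit of a complex that acetylates histone H4. It ranked 151 and 712 in the E. coli libraries and 660 and 248 in the conventional ones, against germ-free folds of 5.77 and 6.97. Trip12, a ubiquitin ligase, and Fbxo36, an F-box protein, share a divergent promoter near position 84839841 of chromosome 1, where conventional replicate 2 had an interval of rank 56 and a fold of 20.3. The other colonized ranks of Trip12 were 438, 405 and 247. In germ-free replicate 1 no promoter interval of either gene was listed, and germ-free replicate 2 listed one with a fold of 8.87, just under 9.50. Ube2q1, a ubiquitin-conjugating enzyme, ranked 483, 620, 352 and 279, and in germ-free replicate 2 its fold was 9.50, tied with the lowest rank used. The same tie held for Tfg, a protein of endoplasmic reticulum exit sites, which ranked 324, 753, 100 and 209. Pmp22, a membrane protein best known from myelin, ranked 243, 831, 652 and 493, and its germ-free folds of 5.19 and 8.87 fell short of those needed.

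The genes called in both germ-free and no colonized library included 2 of the immediate-early and AP-1 list (Junb and Ier2), 2 of the keratin and cytoskeleton list (Krt19 and Eps8) and 1 of the epithelial junction list (F11r). The other 13 were Letm2, Leng9, Chtop, Chordc1, Clcn4-2, Snrnp35, Caprin1, Raph1, Ube2b, Eif3d, Phf23, Arpc2 and Golga1. For 7 of the 18 (Letm2, Eps8, Leng9, Chtop, Snrnp35, Ier2 and Caprin1) the pattern held for any order of the ties. All 18 had a promoter interval in the complete list of conventional replicate 2, 13 in that of conventional replicate 1, 6 in that of E. coli replicate 1 and none in that of E. coli replicate 2, whose complete list is the 870 intervals themselves. These counts follow the lengths of the lists.

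Junb encodes an AP-1 subunit that is induced within minutes of a stimulus. It ranked 381 and 349 in the germ-free libraries, with folds of 8.08 and 12.0. In E. coli replicate 1 and the 2 conventional libraries its promoter intervals had folds of 4.73, 6.37 and 7.97, of which the second equalled the lowest fold used. E. coli replicate 2 had no interval within 1 kb of the Junb start site but a top-ranked one, of rank 680, from 1479 to 1649 bp downstream of it. By position, then, the locus was not confined to the germ-free side. Ier2, another immediate-early gene, ranked 513 and 437 in the germ-free libraries, had a fold of 5.79 in conventional replicate 2, and had no promoter interval in the other 3 colonized lists. Of the 22 genes of this list, 10 were called in any library: 7 and 10 of them in the germ-free libraries, against 1 and 6 in the E. coli libraries and 6 and 6 in the conventional ones. As shares of all genes called in a library the sides overlapped, with 1.25 and 1.39% in the germ-free libraries and 0.231 to 1.32% in the colonized ones. Fos, Fosl2, Jun, Klf6 and Zfp36 were called in both germ-free libraries and in 2 to 4 colonized ones.

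F11r encodes the junctional adhesion molecule JAM-A of tight junctions. It ranked 637 and 250 in the germ-free libraries, the first a tie at the lowest rank, and was listed among the colonized libraries only in conventional replicate 2, with a fold of 6.52 against 10.1 needed. Eps8, which bundles and caps actin in microvilli, ranked 500 and 187. Krt19, a keratin of simple epithelia, ranked 812 and 117, the first a tie at the lowest rank. Its conventional folds were 6.37 and 5.07, of which the first equalled the lowest fold used, so its pattern rested on the order of ties. E. coli replicate 2 held a top-ranked interval, of rank 256, near the Krt19 start site but beyond 1 kb. With Junb, this made 2 of the 18 genes with a top-ranked colonized interval of any class within 3 kb, a window chosen after the values were seen, whereas none of the 9 genes on the colonized side had such a germ-free interval. Other genes of the same lists did not share the pattern: Vil1, Myo7b, Actb and Actg1 of the cytoskeleton list and Cldn7 and Epcam of the junction list were called in all 6 libraries.

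The remaining germ-free members with the best ranks were Letm2, Leng9 and Chtop. Letm2, a mitochondrial membrane protein, ranked 240 and 113 in the germ-free libraries, and its folds in E. coli replicate 1 and the conventional libraries were 4.14, 4.25 and 8.69. Leng9 ranked 371 and 344. Chtop, an mRNA export factor, ranked 468 and 256 and was listed in 1 colonized library, conventional replicate 2, with a fold of 8.69. Snrnp35, a protein of the minor spliceosome, ranked 490 and 423, and Caprin1, an RNA-binding protein of stress granules, 458 and 515. These 5 genes kept their pattern for any order of ties.

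**Figure D2:**
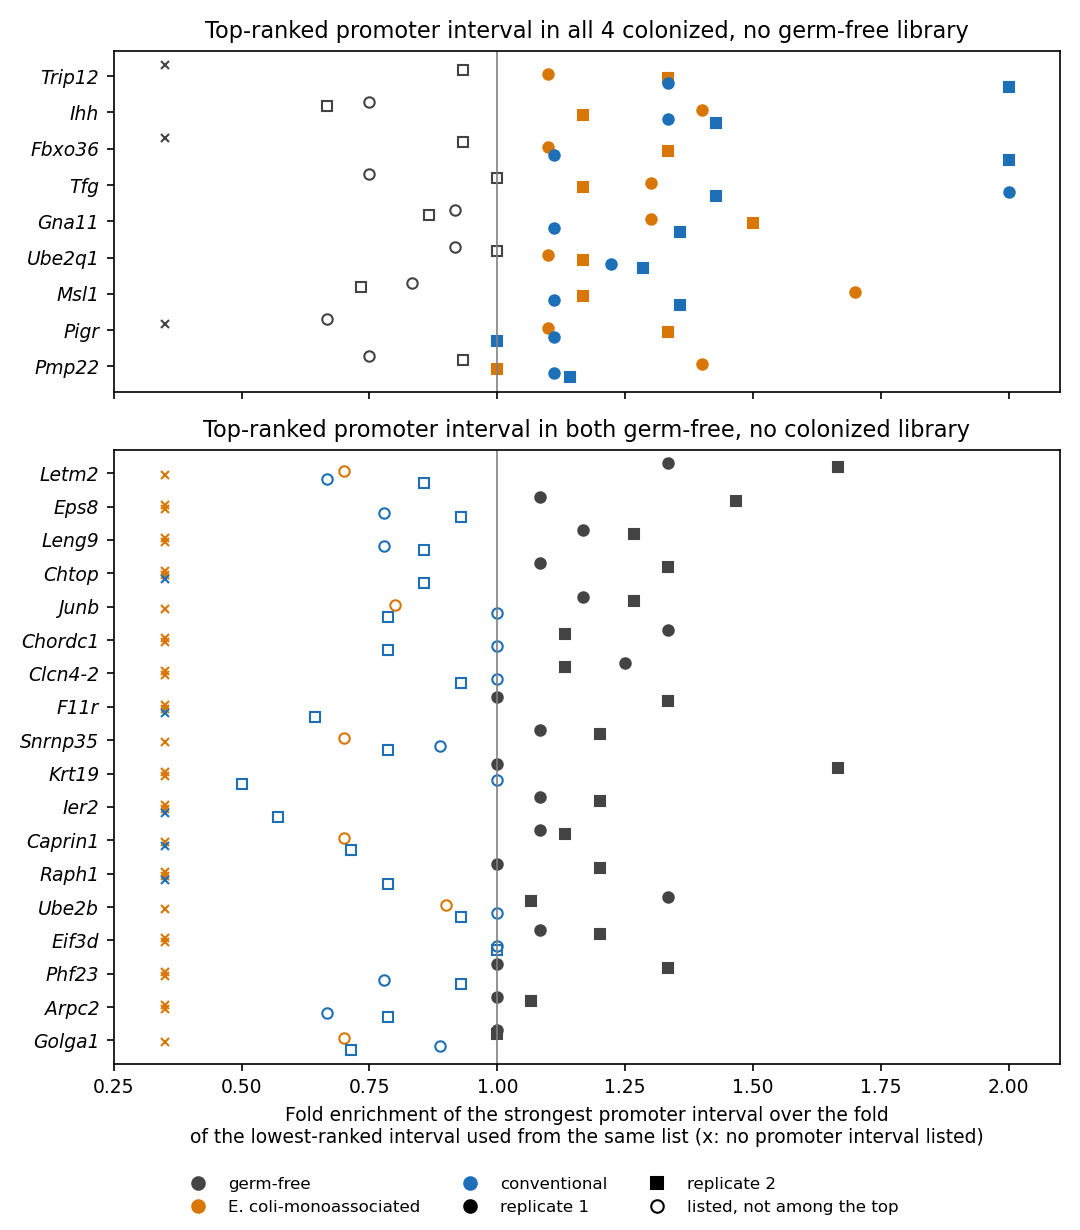
Fold of the strongest promoter interval divided by the fold of the lowest-ranked interval used from the same list (x axis, linear) for the 9 genes called in all 4 colonized and no germ-free library (upper panel) and the 18 called in both germ-free and no colonized library (lower panel), 1 point per library; filled points were among the 870 top-ranked intervals, open ones were elsewhere in the list and crosses had no promoter interval. Germ-free points of the upper panel sit between 0.667 and 1, and the colonized points of the lower panel between 0.5 and 1, where 1 is a tie at the lowest rank used.

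The intervals around Pigr, Ihh, Junb and F11r differed between libraries in number and width. At F11r, germ-free replicate 2 had 1 interval from 340 to 2818 bp downstream of the start site, where conventional replicate 2 had 4 separate intervals between 262 and 2700 bp. At Ihh, germ-free replicate 2 listed 5 intervals within 3 kb, none of them among the top-ranked.

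**Figure D3:**
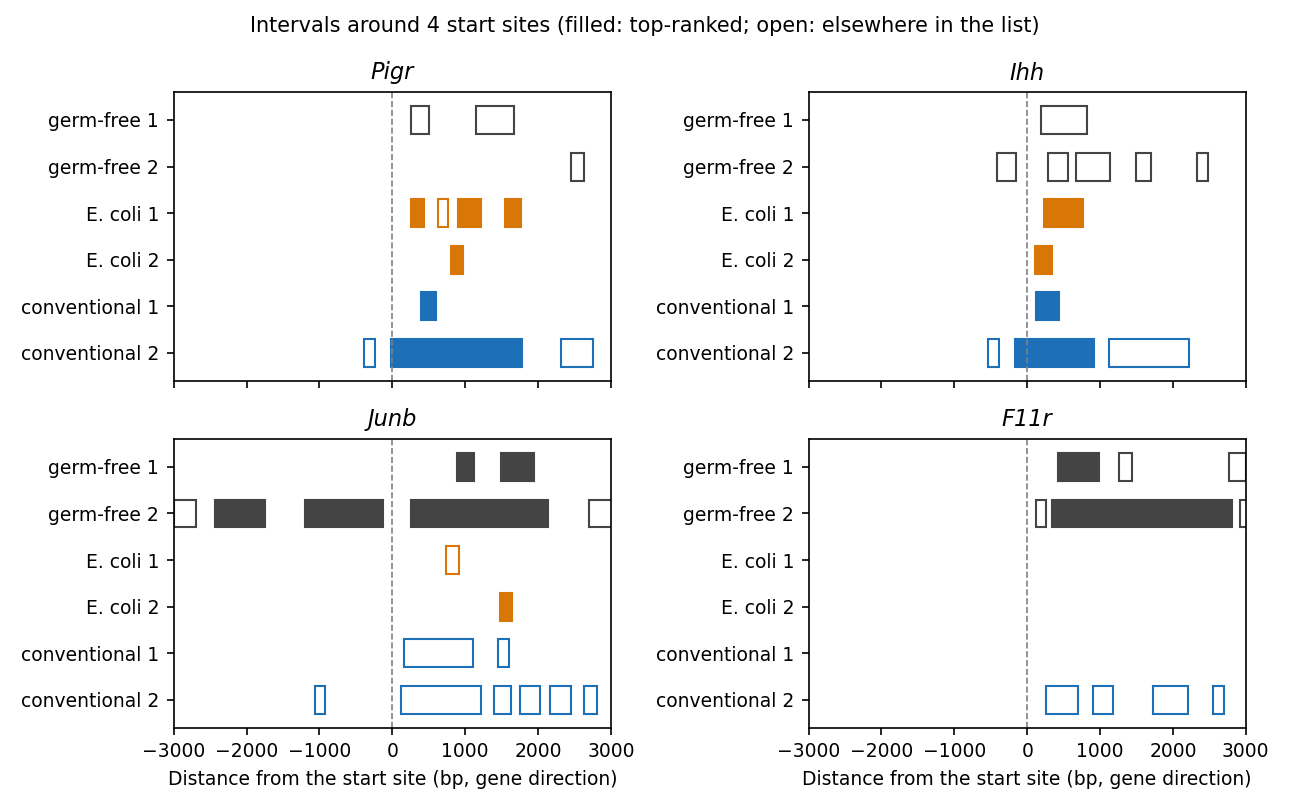
Intervals of the complete lists within 3 kb of 4 start sites, as distance in bp in the direction of the gene (x axis), 1 row per library; filled bars were among the 870 top-ranked intervals and open bars were not. At Pigr and Ihh filled bars appear in the 4 colonized rows alone, at F11r in the germ-free rows alone, and at Junb in both germ-free rows and, more than 1 kb downstream of the start site, in E. coli replicate 2.

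Of the 28 genes called in exactly 3 colonized and no germ-free library, 11 were missed in E. coli replicate 1, 6 in E. coli replicate 2, 8 in conventional replicate 1 and 3 in conventional replicate 2. The pattern held for any order of ties in 11 of them. In the complete lists, 21 of the 28 had a promoter interval in germ-free replicate 1 and all 28 had one in germ-free replicate 2. The transcription factors among the leading genes were Rxra and Maf, both from the list of intestinal transcription factors, and Atf4 from the list for heat shock and the unfolded protein response. Rxra, the retinoid X receptor that pairs with other nuclear receptors, ranked 166 in E. coli replicate 2 and 154 and 175 in the conventional libraries. It had no interval within 1 kb of its start site in E. coli replicate 1 or germ-free replicate 1, and one with a fold of 6.33, against 9.50 needed, in germ-free replicate 2. Germ-free replicate 1 did list an interval, with a fold of 4.62, that overlapped the Rxra region of the colonized libraries. Maf ranked 538, 178 and 150 in the 3 libraries with an interval within 1 kb of its start site, and its germ-free folds were 5.77 and 6.97. Conventional replicate 1 held a top-ranked Maf interval, of rank 615, beyond 1 kb, so that the Maf region as a whole was among those held by all 4 colonized and no germ-free library. Rxra and Maf kept the 3-library pattern for any order of ties, whereas Atf4, a factor of the integrated stress response, had a tie in germ-free replicate 2.

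Slc5a1, which encodes the sodium-glucose cotransporter SGLT1 of the brush border, ranked 505, 233 and 273 in the E. coli libraries and conventional replicate 1. In conventional replicate 2 its fold of 5.79 was low beside the 10.1 needed, in germ-free replicate 2 the fold was 8.87, and germ-free replicate 1 listed no promoter interval. B2m, the light chain of MHC class I, ranked 674 in E. coli replicate 1 and 804 and 734 in the conventional libraries. Each of these calls was a tie at the lowest rank used, and the germ-free folds of B2m were 6.35 and 4.43. E. coli replicate 2 listed no B2m interval, and the pattern did not hold for every order of ties. Of the same list, H2-D1, an MHC class I heavy chain, was called in 2 colonized and no germ-free library, the peptide transporter subunit Tap2 in 1 and no germ-free library, and the chaperone Tapbpl in 2 and germ-free replicate 1. The class I list as a whole had 1 and 0 genes called in the germ-free libraries, 2 and 0 in the E. coli libraries and 2 and 4 in the conventional ones, so that the sides overlapped.

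Med13, a subunit of the Mediator kinase module, ranked 529, 145 and 91 in the 3 libraries that held it. Arid1a, of the BAF remodelling complex, ranked 720, 449 and 96. Epc2, of the NuA4 acetyltransferase complex, ranked 664, 509 and 216, and Kdm2a, a demethylase of histone H3, 428, 868 and 141. Smad7, the inhibitor of TGF-beta signalling, ranked 583, 244 and 94, but its fold in germ-free replicate 2 was tied with the lowest rank used. Dgkq, a diacylglycerol kinase, ranked 283, 467 and 579. Ndufa6 of respiratory complex I ranked 379, 442 and 404, Uqcrfs1, the Rieske protein of complex III, 575, 671 and 137, and Sucla2, a subunit of succinyl-CoA ligase, 552, 315 and 518. Tpt1 and the noncoding Gm4285, tied to the same intervals by the authors, ranked 584, 98 and 664. Conventional replicate 2 gave the best rank of Med13, Arid1a, Epc2, Kdm2a, Smad7 and Uqcrfs1.

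Merged over libraries, the intervals formed 2350 regions. Of these, 12 (0.511%) held an interval of all 4 colonized and no germ-free library, 18 (0.766%) of both germ-free and no colonized library, and 31 (1.32%) of exactly 3 colonized and no germ-free library. Promoters made up 11, 14 and 24 of them. As with genes, the patterns need different numbers of libraries, so the shares of regions are not like measures. The 1 region of the colonized side outside a promoter lay in an intron of Zbtb7b, which encodes a zinc finger transcription factor also known as ThPOK, at chr3:89386699-89388401 (mm10). It ranked 165 and 289 in the E. coli libraries and 261 and 359 in the conventional ones, held for any order of ties, and was listed with folds of 5.77 and 5.07 in the germ-free libraries. Each colonized library thus held it well above its lowest rank used. The pattern was that of the intron alone, as the Zbtb7b promoter was called in all 6 libraries, with folds of 9.23 and 11.4 in the germ-free ones.

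On the germ-free side, 4 regions lay outside promoters, and 2 of them had no interval in any complete colonized list. The first was in an intron of Jarid2, a subunit found with Polycomb repressive complex 2, at chr13:44869510-44869745, with ranks of 836 and 141 in the germ-free libraries. The second lay upstream of Ache and Ufsp1 at chr5:137278019-137278880, with ranks of 717 and 336. In germ-free replicate 1 both had the fold of the lowest rank used, 6.93, and neither held for every order of ties. No region on the colonized side was missing from both complete germ-free lists. Of the 7 regions outside promoters in exactly 3 colonized libraries, the best ranked was in Rnf114, a ubiquitin ligase, at chr2:167503207-167504163, with ranks of 346, 214 and 122, followed by an intron of Sp140, a chromatin reader of immune cells, at chr1:85625341-85625626, with ranks of 337, 165 and 759.

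Of the 81 genes called in all 6 libraries, 5 ranked higher in every colonized than in every germ-free library (6.17%) and 8 the other way (9.88%). Ranks here run from 1 to 81 within each library, with 1 the strongest. For a gene with 6 distinct ranks, 1 of the 15 splits into 4 and 2 libraries separates the ranks in a given direction, a share of 0.0667. The counts were not tested against this share. Hjurp, a chaperone of the centromeric histone, had the widest gap: it ranked 10 and 13.5 in the germ-free libraries and 40, 63, 42 and 53 in the colonized ones. For 2200002D01Rik the germ-free ranks were 40 and 43 and the colonized ones 74, 73, 63 and 77. Ep300, an acetyltransferase and coactivator, ranked 64.5 and 54 in the germ-free and 40, 23, 42 and 35.5 in the colonized libraries. Cdx2, the intestinal homeobox factor, ranked 13.5 and 37.5 in the germ-free and 6, 12.5, 9 and 11.5 in the colonized libraries, with a gap of 1 rank between the sides. Between the libraries of 1 group, the same promoters differed by a median of 16.5 ranks in the germ-free, 10.5 in the E. coli and 15.5 in the conventional libraries. Between a germ-free and a colonized library this median ran from 8.5 to 19.5. Of the genes whose ranks did not overlap, Hjurp (gap of 26.5) and 2200002D01Rik (gap of 20) had the widest gaps. A gap is taken between the nearest ranks of the sides for 1 gene, so it is not a like measure to these medians. Top1, Kmt2e with 5031425E22Rik at the same promoter, Myo7b, Ppp1r12a, Brd2, Csnk1a1 and Zc3h4 had gaps of 4.5 ranks or fewer.

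Among 26 gene lists, 21 had a member called. For a given list, at most 1 of the 15 splits into 4 and 2 libraries puts every count of the 4 above both others. That is a share of 0.0667, the same holds for below, and the lists were not tested. The count called in every colonized library was above that in both germ-free libraries for 1 list (4.76%) and below it for 2 lists (9.52%). The higher one was nutrient transport, with 2 and 4 genes in the germ-free libraries, 5 and 6 in the E. coli libraries and 5 and 5 in the conventional ones. Different transporters made up these counts: Slc9a3r1, a scaffold of brush border transporters, was called in both E. coli libraries, Slc7a9, a subunit of the cystine transporter, in both conventional ones, and Slc6a19, a neutral amino acid transporter, in 3 colonized libraries and germ-free replicate 2. The lower ones were the immediate-early list given above and splicing factors, with 8 and 7 genes in the germ-free libraries, 3 and 1 in the E. coli libraries and 6 and 6 in the conventional ones. Srsf5, Sf3b1 and Hnrnpa3, which act in splicing, were each called in both germ-free libraries and 1 colonized one, whereas Srsf11 was called in 2 colonized libraries and no germ-free one and Rbm39 in all 6. The number of genes called also differed between libraries (559 and 719 in the germ-free libraries, 432 and 456 in the E. coli libraries and 621 and 792 in the conventional ones). Taken as shares of each library's genes, 2 lists were higher in every colonized library (9.52%), nutrient transport and intestinal transcription factors, and 1 was lower (4.76%), splicing factors, while the immediate-early shares overlapped. The intestinal transcription factors made up 1.43 and 1.53% of the genes called in the germ-free libraries, 1.85 and 3.07% in the E. coli libraries and 2.25 and 1.89% in the conventional ones.

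**Figure D4:**
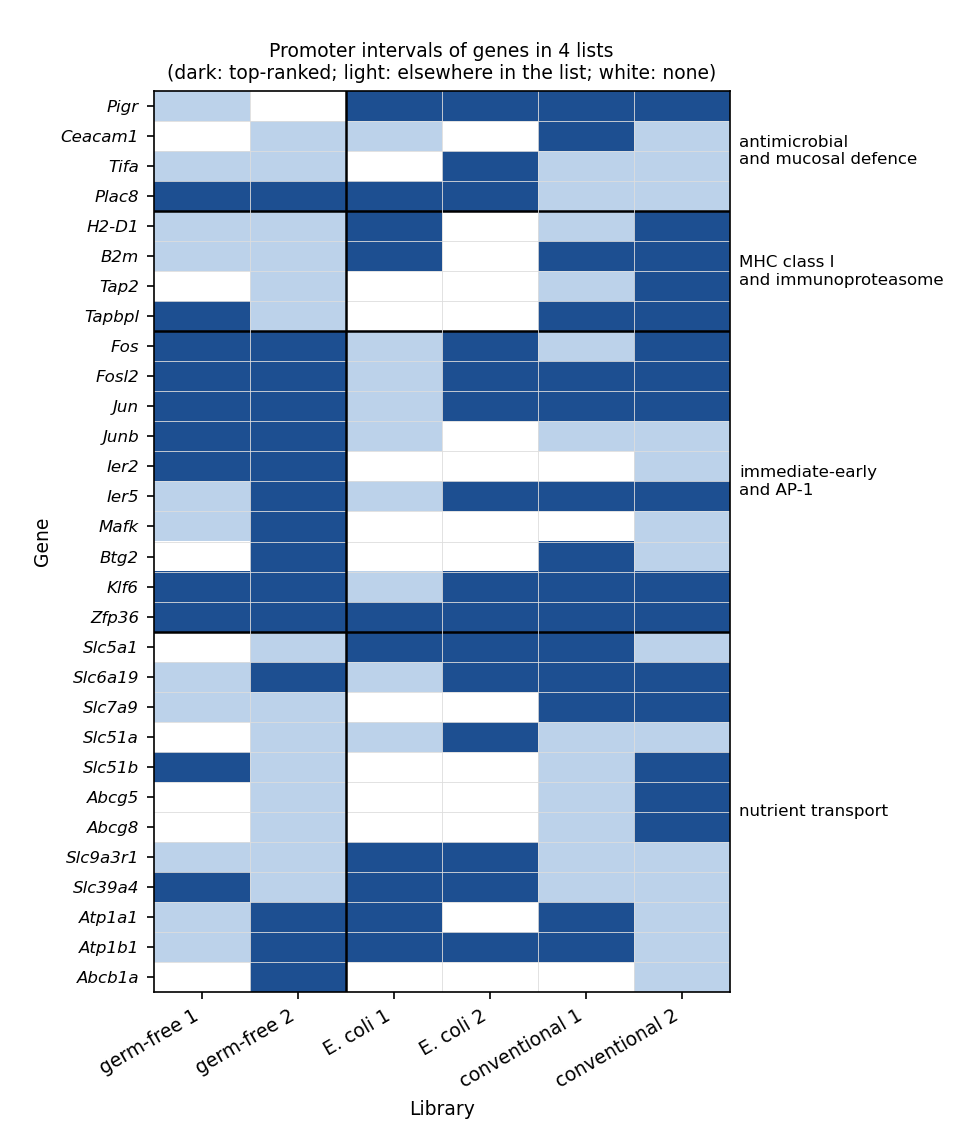
Promoter intervals of the genes of 4 lists (rows) in the 6 libraries (columns); dark cells were among the 870 top-ranked intervals, light cells elsewhere in the list, and white cells had none. Pigr is dark in the 4 colonized columns alone and B2m in 3 of them; Junb and Ier2 are dark in the 2 germ-free columns alone.

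Over whole lists, no difference between the sides was larger than the spread between libraries. Promoters made up 60.3 and 74.5% of the top-ranked nuclear intervals in the germ-free libraries, 47.9 and 53.2% in the E. coli libraries and 67.0 and 81.8% in the conventional ones. The colonized mean was 62.5% ± 15.2 (SD, n = 4) and the germ-free mean 67.4% ± 10.1 (SD, n = 2), a difference of -4.93 percentage points (exact two-sided permutation test, p = 0.733). Germ-free shares lay within the range of the colonized ones, both E. coli libraries and conventional replicate 1 lay below the germ-free mean, and conventional replicate 2 lay above it. Introns made up 14.6 and 8.06% in the germ-free libraries, 20.4 and 19.2% in the E. coli libraries and 12.1 and 4.04% in the conventional ones, and 5 region classes compared in this way all gave an adjusted p of 0.733 by the same exact test.

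The overlap between lists, as bases in both over bases in either (Jaccard index), averaged 0.275 over the 8 pairs across the sides, 0.288 over the 6 colonized pairs and 0.213 in the 1 germ-free pair. Pairs on the same side exceeded pairs across by 0.00239, less than the spread among pairs (exact one-sided permutation test, p = 0.4). The 2 germ-free libraries shared 247 called genes, 44.2% of those of replicate 1 and 34.4% of those of replicate 2. Germ-free replicate 2 shared 352 genes with conventional replicate 2, the other library with long intervals, which was 49.0% of its own and 44.4% of those of the latter.

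**Figure D5:**
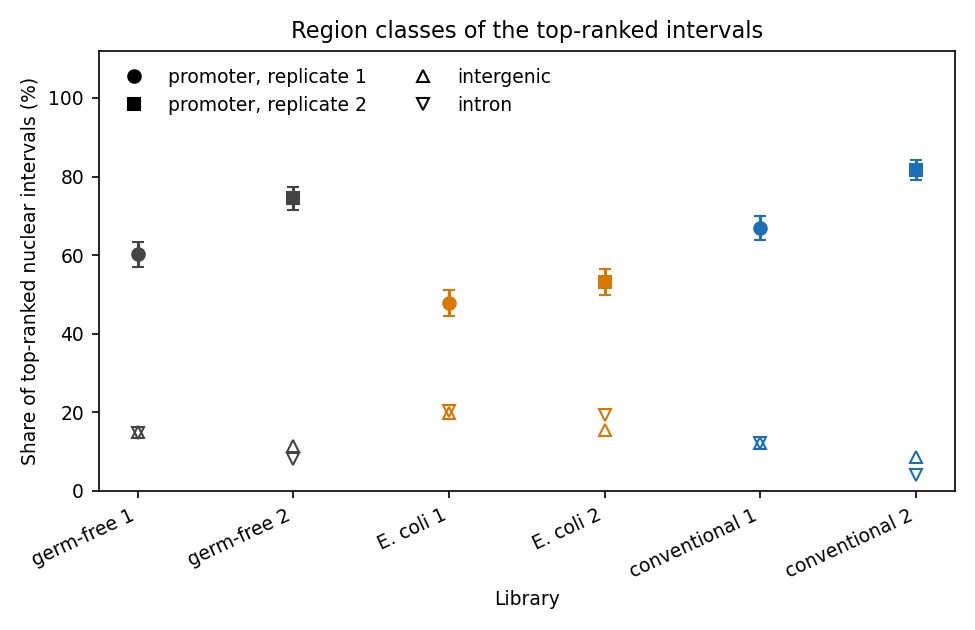
Share of top-ranked nuclear intervals by library (y axis, percent): filled points are promoters with Wilson 95% intervals, which cover counting error only, and open triangles are intergenic (pointing up) and intron (pointing down) intervals. Promoter shares of 60.3 and 74.5% in the germ-free libraries lie between those of the E. coli libraries (47.9 and 53.2%) and the highest conventional one (81.8%).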

How the data were processed

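H3K9ac was measured in 6 libraries, prepared by ThruPLEX chemistry and sequenced on 1 end for 50 bp at 20 M reads, per the labels. The submitters' processing notes name MACS2 2.1.1.20160309, Bowtie 1.2.0 and mm10; use of an input control is not given in the sources used here. Every deposited file is the peak list of 1 library, so peaks were called per sample. Per the file headers, the deposited columns are the pileup (coverage signal) at the summit, -log10 p, the fold enrichment (a ratio) and -log10 q. In germ-free replicate 2 the deposited list had 1 header name more than cells and no pileup, and its columns were identified from the values.

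Lines that repeated an interval were merged, and the 870 intervals with the highest -log10 q were taken from each list, with ties ordered by fold, then chromosome and position. Gene names were matched to RefSeq (10567 of 10621; 54 were not). Promoters lay within 1 kb of a start site, and regions were joined at 1 bp of overlap. Mitochondrial intervals (2 to 4 per library) stayed in the lists and out of the shares. Exact permutation over 15 splits served for shares and overlaps. Functions were tested on simulated lists. Named genes were all those of a pattern with 20 or fewer, otherwise the 15 with the best mean rank plus members of the gene lists; regions outside promoters, the 10 best. The software was matplotlib 3.10.9, SciPy 1.17.1, NumPy 2.4.6, pandas 2.3.3 and Python 3.11.15. The comparison, the gene lists and the motifs were chosen with earlier results of these data known. Differences of replicate 2 minus 1 in called genes correlated at -0.0034, -0.0232 and -0.0518 between groups. These values cover called genes and not list or interval length, which were both large in germ-free replicate 2 and conventional replicate 2. Whether libraries of 1 replicate number shared a batch was not tested. Alternatives in the list length, ranking, ties, window, overlap and libraries used are given in the closing section. Of the genes called in all 6 libraries, 1 is not reported here.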

Additional observations from a re-analysis of the deposited data

Results flagged for a closer look

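Among the 4 colonized libraries, conventional replicate 2 stood far above the others in the number of intervals listed, with 15352 against 870 to 3117. It was the 1 such value among 29 checks of groups of 4 libraries, of which about 1 in 20 is expected by chance. Its top-ranked intervals, used in equal number, were also longer than those of the other 3 colonized libraries, and the part of this in the members was not tested.

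The share of intergenic intervals stood above the germ-free mean of 13.2% in both E. coli libraries (19.9 and 15.4%) and below it in both conventional ones (12.2 and 8.55%). The E. coli mean was 7.29 percentage points above the conventional one, and this difference was not tested.

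Intervals on the mitochondrial genome, which carries no histones, were listed in every library: 4 in each conventional library and 2 in each of the other 4.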

How the results depend on the processing

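Removing mitochondrial intervals first, a promoter window of 2.5 kb or joining regions at 100 bp left the pattern counts, rank counts and differences they apply to in the same direction and within 1.5 times. The 2.5 kb window did move 3 named genes: the share of colonized minus germ-free libraries became -0.75 for Junb and Krt19 and 1 for Maf. With all deposited intervals, the colonized pattern (all 4, no germ-free) fell to 0 genes and 1 region and the 3-of-4 pattern to 7 genes (0.0809% of 8655) and 8 regions, while the germ-free pattern grew to 61 genes (0.705%) and 164 regions; ranks above germ-free, and the reverse, were counted for 28 and 16 genes, the promoter difference became 1.57 points and the Jaccard difference -0.00732. The lists are then of unequal length. With the 500 top intervals, the colonized pattern had 6 regions, the 3-of-4 pattern 13 genes and 14 regions, and the rank counts were 2 and 4. With the longest intervals, the germ-free pattern had 34 genes and 32 regions. With all ties kept it had 31 genes and 30 regions and the Jaccard difference was -0.00183; with ties left out the 3-of-4 pattern had 18 genes and 17 regions and the rank counts were 2 and 5; with ties broken from the last position they were 8 and 5. The 3 tie settings were chosen after seeing the data. Without E. coli replicate 2 and with 1988 intervals per list, 59 genes and 51 regions had the colonized pattern (all 3), 67 genes and 67 regions the germ-free one, and 242 genes and 235 regions all but 1 colonized; the rank counts were 37 and 28 and the Jaccard difference -0.0183.

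Leaving out 1 library makes each pattern easier to meet, so counts rose. The colonized pattern ranged from 12 to 21 genes and 16 to 33 regions, and the germ-free pattern from 21 to 231 genes and 20 to 287 regions, with 231 genes without germ-free replicate 1 and 190 without germ-free replicate 2. The pattern missing 1 colonized library ranged from 49 to 117 genes and 68 to 111 regions, and the rank counts from 10 to 22 and 10 to 20. The promoter difference ranged from -12.1 to 2.22 points, turning positive without germ-free replicate 2. The Jaccard difference ranged from -0.0426 to 0.0686, negative without germ-free replicate 2 (-0.0426), E. coli replicate 1 (-0.0193), E. coli replicate 2 (-0.0207) or conventional replicate 1 (-0.0207). The cause of these changes was not tested.

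Of 43 named genes, the share of colonized minus germ-free libraries turned to -0.25 with all intervals for Med13, Ndufa6, Dgkq, Gm4285, Tpt1, Uqcrfs1, Epc2 and B2m, and the other 35 moved without turning. With the 500 top intervals 33 moved, and with the longest intervals 33 moved and 5 turned. With the longest ones it turned to 0.25 for Clcn4-2, Ube2b and Golga1, to -0.5 for Med13 and to -0.25 for Ndufa6, and with 1988 intervals without E. coli replicate 2 to -0.333 for Med13. Permuted within replicate numbers (the replicate block, 9 splits, smallest p 0.111), the promoter difference of -4.93 gave p = 0.778 and the Jaccard difference of 0.00239 gave p = 0.444 (exact tests), and no call changed.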

Other observations

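In the complete lists, 61 genes had a promoter interval in both germ-free libraries and in no colonized one, against 0 in all 4 colonized and no germ-free library and 7 in exactly 3 colonized and none. The strongest of the 61 by rank were Cdkl2, Nek8, Zdhhc13, Aasdh and Btf3l4. The colonized side needs the list of E. coli replicate 2, which holds 870 intervals, whereas germ-free lists hold 4430 and 17094, so these counts move with list length.

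The lists hold calls, with no coverage and no depth beyond the stated 20 M reads. With 2 germ-free libraries, no split can give a p under 0.0667. The mean promoter shares of the E. coli and conventional libraries, 50.6 and 74.4%, differed by more than either did from the germ-free mean of 67.4%. Housing, colonization and any batch of library preparation cannot be told apart.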
